A study of Homo sapiens with 4 samples.

Results

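The 10 genes described here make, store, take up or break down catecholamines, or pack the granules that hold them: TH, DDC, DBH, GCH1, SLC18A1, SLC18A2, SLC6A2, CHGA, CHGB and MAOA. They were chosen by role, but with earlier results of these data known. Their GENCODE 44 symbols were matched to the Ensembl identifiers of a table with 64252 genes. All 10 were found, and all 10 were among the 18779 genes with enough counts to be tested. The cells were SK-N-BE(2), an established human neuroblastoma line. Both groups carried a stably expressed short hairpin RNA (shRNA), delivered by lentivirus and kept by puromycin selection, which was scrambled in the control group (sh-Scb) and directed at SAPCD2 in the other (sh-SAPCD2). The question was which transcripts differ when SAPCD2, a polarity-linked regulator of spindle orientation, is reduced. Each group had 2 RNA-seq libraries, and the labels do not say that these came from separate cultures. Each p-value thus rests on the spread between these libraries, which the test pools in part over genes, and not on a known spread between cultures. The sample labels do not tell which SAPCD2 shRNA was used, and the study's heat map of these libraries names shRNA #1.

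Catecholamines are made from tyrosine. Tyrosine hydroxylase (TH), which needs tetrahydrobiopterin as cofactor, forms L-DOPA, DOPA decarboxylase (DDC) turns L-DOPA into dopamine, and dopamine β-hydroxylase (DBH) turns dopamine into noradrenaline inside the vesicle. Vesicular transporters load the amines, chromogranins fill the dense core of the granule, the noradrenaline transporter recovers released amine, and monoamine oxidase degrades it. Neuroblastoma arises from the sympathetic lineage of the neural crest, and its catecholamine metabolites in urine are used in diagnosis.

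The libraries held 25347900 to 31850997 counts, and 3 counts, taken as the detection floor, equaled 0.0955 to 0.119 CPM (counts per 1000000 of the TMM-scaled library total). The floor covers counting error only. Each library correlated with its own group at r = 0.986 (sh-Scb) or 0.980 (sh-SAPCD2) over genes and with the other group at 0.954 to 0.961. SAPCD2 itself stood at 83.6 and 82.2 CPM in the sh-Scb libraries and at 35.4 and 52.5 CPM in the sh-SAPCD2 libraries. Its transcript was thus left at 42.7% and 63.3% of the control mean, a log2 fold change of -0.91 (SE 0.193, adjusted p = 0.0206), with the first sh-SAPCD2 library reduced further. That call was lost with no filter on low counts (adjusted p = 0.0749). Correcting the libraries for GC content and gene length gave a larger reduction of SAPCD2, -1.31 (SE 0.0706). Over every other setting and left-out library its log2 fold change ran from -1.31 to -0.67, so the depth of the knockdown depends on the processing.

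Of the 10 genes, 5 fell in sh-SAPCD2 cells at an adjusted p under 0.05 by edgeR's quasi-likelihood test. These were DBH, SLC6A2, CHGB, MAOA and GCH1. Over all tested genes, 12.5% fell by that rule. None of the 10 rose, against 12.4% of all tested genes. No member had an unadjusted p under 0.05 in that direction, and DESeq2 called 0 as well. DBH and SLC6A2 were the 2 members that also passed the study's limit of a log2 fold change beyond 1, which 5.15% of tested genes passed downward and 4.69% upward. TH and DDC, the enzymes that form L-DOPA and dopamine, did not pass the test, nor did CHGA or either vesicular transporter. The median log2 fold change of the 10 genes was -0.29, beside 0.02 over all tested genes. In bulk RNA, fewer cells of a type and less RNA per cell cannot be told apart.

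**Figure D1:**
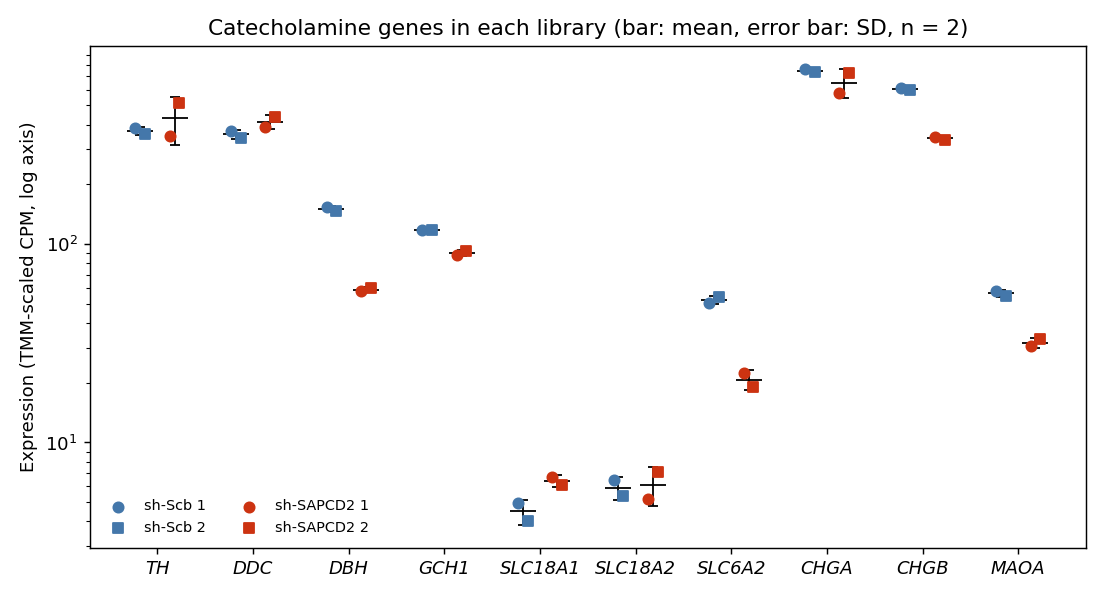
The level of each of the 10 genes in every library, in TMM-scaled CPM on a log axis, with points for single libraries, horizontal lines for group means and error bars for the SD (n = 2). DBH, SLC6A2, CHGB, MAOA, GCH1 and CHGA have both sh-SAPCD2 libraries below both sh-Scb libraries, DDC and SLC18A1 have both above, and TH and SLC18A2 overlap.

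The 2 groups did not overlap for 8 of the 10 genes. Both sh-SAPCD2 libraries lay below both controls for 6 genes, a pattern found in 33.4% of tested genes, and above them for DDC and SLC18A1, the pattern of 33.5%. With 2 libraries a side, separation is therefore common in this table, and the size of a change has to be read together with its error.

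**Figure D2:**
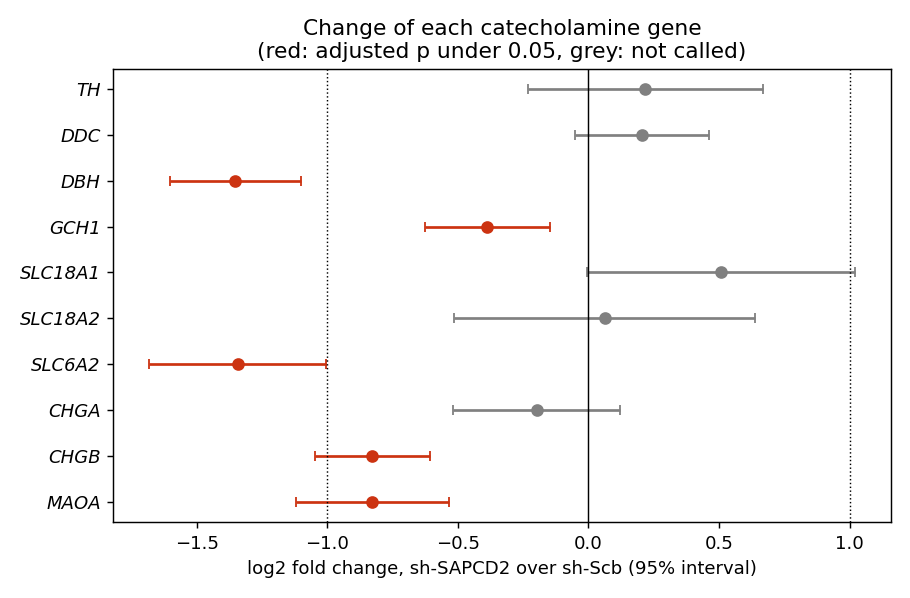
The log2 fold change of each of the 10 genes, sh-SAPCD2 over sh-Scb, with its 95% interval from the edgeR fit and with called genes marked. DBH at -1.35 and SLC6A2 at -1.34 lie lowest, and the intervals of TH, DDC, SLC18A1, SLC18A2 and CHGA include 0.

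DBH changed most among the enzymes. It lies on the plus strand at chr9:133636363-133659329 (hg38). The promoter window of DBH is shown because this enzyme had the lowest fold change of the 10 genes, and those of CHGA and MAOA are shown beside it as a granin that was not called and a second gene that fell. The RefSeq table (GRCh38.p14, 250 bases before to 50 after the start) held a window for 5 of the 10 genes, the others being DDC and SLC18A2. The start is that of RefSeq, and the MAOA window lies inside the GENCODE span of the gene, which begins at chrX:43654907. Capitals mark the CAAT box (CCAAT), the GC box (CCGCCC) and the full cAMP response element (TGACGTCA), each searched on both strands.
DBH, chr9:133636113-133636412, plus strand: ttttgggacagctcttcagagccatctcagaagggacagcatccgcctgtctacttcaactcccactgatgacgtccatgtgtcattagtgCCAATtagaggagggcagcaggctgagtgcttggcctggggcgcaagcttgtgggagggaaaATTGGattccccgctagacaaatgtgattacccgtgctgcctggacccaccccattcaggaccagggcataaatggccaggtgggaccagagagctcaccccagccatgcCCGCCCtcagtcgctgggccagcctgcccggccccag
CHGA, chr14:92922900-92923199, plus strand: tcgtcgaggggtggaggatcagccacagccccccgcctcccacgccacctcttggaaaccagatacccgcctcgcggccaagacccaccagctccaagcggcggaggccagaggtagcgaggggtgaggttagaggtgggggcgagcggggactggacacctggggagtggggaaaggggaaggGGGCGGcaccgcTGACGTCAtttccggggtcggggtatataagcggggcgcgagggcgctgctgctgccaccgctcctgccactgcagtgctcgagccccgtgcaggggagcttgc
MAOA, chrX:43656049-43656348, plus strand: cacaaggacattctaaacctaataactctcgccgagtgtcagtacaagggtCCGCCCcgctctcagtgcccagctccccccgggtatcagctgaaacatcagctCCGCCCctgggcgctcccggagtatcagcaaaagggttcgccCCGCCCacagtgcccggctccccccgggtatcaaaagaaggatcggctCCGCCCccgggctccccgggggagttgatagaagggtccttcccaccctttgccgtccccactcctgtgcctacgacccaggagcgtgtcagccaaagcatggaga

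The DBH window held CCAAT at bases 92 to 96 and, on the opposite strand, at 154 to 158, with a GC box at 264 to 269. CCAAT occurs in 35.7% of the 27305 RefSeq promoter windows and CCGCCC in 44.6%. Of the 10996 windows of tested coding genes, 36.5% and 69.5% held them. The full cAMP response element, found in 1.98% of all windows and 3.21% of those of tested coding genes, occurred in those of CHGA (bases 197 to 204) and SLC18A2 (bases 203 to 210), and neither gene passed the test. MAOA had 4 GC boxes, SLC18A2 had 5 and CHGA had 1. AP-1 letters (TGANTCA) and a GATA site, AGATAA, found in 7.76% and 10.5% of all windows and in 4.27% and 4.95% of those of tested coding genes, were in none of the 5 windows, and that of DDC held no motif searched. Such matches are letters in a window and not measured binding.

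In the sh-Scb libraries DBH stood at 155 and 146 CPM, and in the sh-SAPCD2 libraries at 57.9 and 60.1 CPM. Both sh-SAPCD2 libraries were far below both controls and close to each other, at 38.5% and 39.9% of the control mean. This was a log2 fold change of -1.35 (SE 0.102, adjusted p = 0.00207), and over every other setting and left-out library it ran from -1.53 to -1.31. A gene on the opposite strand, DBH-AS1, overlaps DBH. It had 51 to 83 counts in the 4 libraries, beside 1466 to 4270 for DBH, and did not pass the test (log2 fold change -0.22, adjusted p = 0.582). Whether reads were counted by strand is not given in the sources used here, so reads of such partners cannot be told apart.

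TH, the rate-limiting enzyme (chr11:2163929-2171815, minus strand), measured 384 and 359 CPM in the controls and 349 and 516 CPM in the sh-SAPCD2 libraries. The knockdown libraries thus lay on either side of the controls. The means were 372 ± 17.6 CPM (SD, n = 2) with sh-Scb and 432 ± 118 CPM with sh-SAPCD2, a log2 fold change of 0.22 (SE 0.185, adjusted p = 0.426, 95% interval -0.23 to 0.67). The fold change of TH depended on the library: it was 0.47 without the first sh-SAPCD2 library and -0.09 without the second. In such fits the lone library left is assumed to vary like the other group, so only the fold change is given. Correcting the libraries for GC content and gene length also turned the direction (-0.12, adjusted p = 0.163).

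DDC (chr7:50458436-50565405, minus strand) showed 372 and 345 CPM with sh-Scb and 390 and 436 CPM with sh-SAPCD2. Both sh-SAPCD2 libraries were above both controls, but by less than the test could call. Its log2 fold change was 0.20 (SE 0.105, adjusted p = 0.206, interval -0.05 to 0.46). It was called higher with the GC and length correction (0.26, adjusted p = 0.0216), and its fold change was 0.28 without the first sh-SAPCD2 library. The overlapping DDC-AS1 had 4 to 9 counts in the 4 libraries.

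GCH1 encodes GTP cyclohydrolase, the first enzyme of tetrahydrobiopterin synthesis (chr14:54842008-54902826, minus strand). Its control libraries were nearly equal at 118 and 118 CPM, and its sh-SAPCD2 libraries stood at 88.3 and 92.2 CPM. The groups did not overlap, and 74.8% and 78.2% of the control mean remained. The log2 fold change of -0.39 (SE 0.0986, adjusted p = 0.0356) was the smallest change called among the 10 genes. The call was lost without the first control library (adjusted p = 0.421), without the second (0.436), with no filter on low counts (0.0757) and with the replicate number as a block (0.0712).

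Storage was measured through both vesicular monoamine transporters, and both were scarce. SLC18A1 (VMAT1, typical of adrenal chromaffin cells, chr8:20144855-20183206, minus strand) measured 4.96 and 4.03 CPM in the controls and 6.72 and 6.08 CPM with sh-SAPCD2, or 111 to 191 counts in a library. Its sh-SAPCD2 libraries were both higher, and the log2 fold change was 0.51 (SE 0.211, adjusted p = 0.130), with an interval of -0.0060 to 1.02. SLC18A2 (VMAT2, the form of central and sympathetic neurons, chr10:117241093-117279430, plus strand) measured 6.44 and 5.34 CPM and then 5.18 and 7.10 CPM, so that the groups overlapped. Its log2 fold change was 0.06 (SE 0.236, adjusted p = 0.871, interval -0.51 to 0.64), and its sign turned without the second control (-0.07) or the second sh-SAPCD2 library (-0.19). PDZD8, on the opposite strand and overlapping SLC18A2, had 2592 to 4409 counts and rose by 0.73 on the log2 scale (adjusted p = 0.0129). How many of the SLC18A2 reads came from it cannot be told.

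SLC6A2, the noradrenaline transporter of the plasma membrane, fell about as far as DBH. It lies at chr16:55655988-55707645 on the plus strand. The control libraries gave 50.8 and 54.3 CPM and the sh-SAPCD2 libraries 22.4 and 19.0 CPM. All sh-SAPCD2 values were below the controls, at 42.6% and 36.3% of their mean. The log2 fold change was -1.34 (SE 0.140, adjusted p = 0.00343) and ran from -1.47 to -1.23 over the other settings and left-out libraries. An unnamed gene on the same strand, ENSG00000278928, overlaps it and fell too (-1.78, adjusted p = 0.00322), with 521, 564, 160 and 163 counts. The sources used here do not say how reads shared by both were divided, so the level of SLC6A2 is uncertain.

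The shRNA was compared with the 3′ UTRs of the canonical transcripts (GENCODE 44), because an shRNA can act on other transcripts through bases 2 to 8 of its guide strand. The guide strand of sh-SAPCD2 #1 is shown with those bases in capitals, followed by the 3′ UTR stretches, with the 7 bases searched for in capitals.
sh-SAPCD2 #1 guide strand: aTGAAGGTggaatccagaggt
SLC18A2, seed site: taaataaaACCTTCAgaactgtt
DBH, shifted site of the guide arm: attttcgcCCACCTAaagggaag
SLC6A2, shifted site of the passenger arm: ttaatagcAGAGGTCacccggga

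The seed site ACCTTCA occurred in 12.5% of 13579 tested coding genes and, among the 10 genes, in SLC18A2 alone, at base 1856 of 2164 in its 3′ UTR. At least 1 of 4 further words occurred in 33.9% of those genes. For the guide arm these were TCCACCT, which pairs with bases 5 to 11 of the guide and so in part with the seed, and its variant CCACCTA. For the passenger arm, they were AGAGGTC with the variant that drops its first base and ends in A, and all 4 were singled out after values of these libraries had been seen. DBH held CCACCTA at base 576 of 882. SLC6A2 held both words of the passenger arm, overlapping from base 2689 of 3846. The other 8 genes held none of the 4. A match does not show that the shRNA acts there, and the part of these sites in the 2 changes was not tested.

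The chromogranins, acidic proteins that fill the dense core, moved by different amounts. CHGB (chr20:5911510-5925353, plus strand) measured 612 and 598 CPM with sh-Scb and 346 and 335 CPM with sh-SAPCD2. Replicates agreed closely and the groups lay far apart, with 57.2% and 55.4% of the control mean remaining. The log2 fold change was -0.83 (SE 0.0907, adjusted p = 0.00387), and every setting and left-out library gave -0.86 to -0.80. CHGA (chr14:92923150-92935285, plus strand) gave 761 and 736 CPM in the controls and 576 and 730 CPM with sh-SAPCD2. Both of the latter were lower, at 76.9% and 97.5% of the control mean, and the test did not call CHGA: log2 fold change -0.20, SE 0.131, adjusted p = 0.313, interval -0.52 to 0.12. It was called lower with the GC and length correction (-0.39, adjusted p = 0.00349), and its fold change was -0.38 without the second sh-SAPCD2 library.

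MAOA, the mitochondrial oxidase that degrades noradrenaline and serotonin, fell as well (chrX:43654907-43746817, plus strand). Its values were 58.2 and 54.7 CPM with sh-Scb and 30.5 and 33.1 CPM with sh-SAPCD2. The groups were well separated, at 54.1% and 58.6% of the control mean. This gave a log2 fold change of -0.83 (SE 0.121, adjusted p = 0.00735), and the call was lost without the first control library (-0.78, adjusted p = 0.0615). MAOB, the other monoamine oxidase, had no count in any library, which allows up to 0.0955 to 0.119 CPM.

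To compare levels between genes, CPM were divided by the length of the merged exons in kilobases. In sh-Scb cells CHGA was the most abundant of the 10 genes at 248 ± 5.80 CPM per kb (SD, n = 2), followed by CHGB at 136 ± 2.28. TH and DDC came next at 117 ± 5.52 and 116 ± 6.30 CPM per kb, with overlapping libraries. DBH had 54.8 ± 2.11, GCH1 40.3 ± 0.174, SLC6A2 6.53 ± 0.312 and MAOA 4.34 ± 0.193 CPM per kb. SLC18A2 at 1.43 ± 0.189 and SLC18A1 at 1.15 ± 0.167 CPM per kb were last, and their order turned when the longest transcript was used as length (1.43 and 1.52). In sh-SAPCD2 cells CHGB, at 76.6 ± 1.73, stood below TH at 136 ± 37.1 and DDC at 134 ± 10.7 CPM per kb, and DBH, at 21.5 ± 0.551, stood below GCH1 at 30.9 ± 0.948. SLC6A2 (2.58 ± 0.295) and MAOA (2.45 ± 0.138) then overlapped, as did SLC18A1 (1.64 ± 0.115) and SLC18A2 (1.49 ± 0.330).

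**Figure D3:**
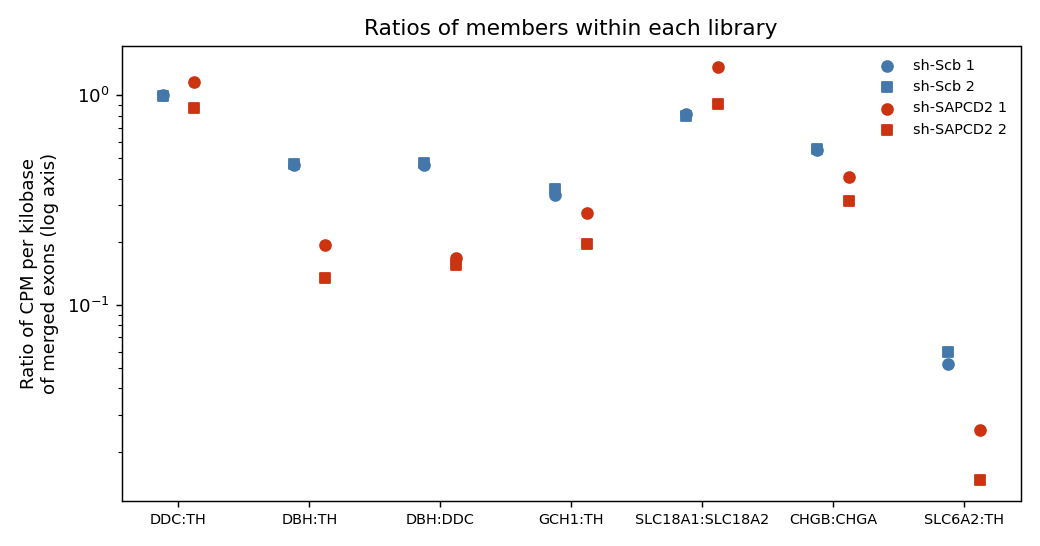
Ratios between genes within each library, from CPM per kb of merged exons, with 1 point per library on a log axis. DBH to TH, DBH to DDC, SLC6A2 to TH, GCH1 to TH and CHGB to CHGA are lower in both sh-SAPCD2 libraries than in both controls.

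Ratios within a library do not depend on how libraries are scaled to each other. DBH relative to TH, the last over the first enzyme of noradrenaline synthesis, was 0.466 and 0.472 in the controls and 0.192 and 0.135 in the sh-SAPCD2 libraries, a log2 change of -1.54. Relative to DDC it went from 0.467 and 0.477 to 0.167 and 0.155 (-1.55). The ratio of DDC to TH was 1.00 and 0.990 in the controls and 1.15 and 0.872 with sh-SAPCD2, overlapping. CHGB relative to CHGA was 0.547 and 0.552, then 0.409 and 0.313, a log2 change of -0.62. The 2 vesicular transporters, SLC18A1 relative to SLC18A2, had ratios of 0.812 and 0.797, then 1.37 and 0.904. Of 7 ratios computed, the groups overlapped for DDC to TH alone. Several of these ratios share a gene, and no share over other pairs of genes was computed. For single genes, the groups lay apart downward in 33.4% and upward in 33.5% of tested genes, so this count says little. With 2 libraries a group, the two-sided exact permutation test over samples can give no p below 0.333, which was its value for the other 6 (0.389 after Benjamini-Hochberg adjustment over the 7).

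The 2 sh-SAPCD2 libraries differed from each other more than the controls did. Over tested genes the median absolute log2 difference between replicates was 0.286 with sh-SAPCD2 and 0.112 with sh-Scb. TH differed by 0.56 between the sh-SAPCD2 libraries, more than most genes (20.8% differed more), SLC18A2 by 0.46 and CHGA by 0.34. In contrast, DBH, CHGB and GCH1 differed by 0.05, -0.05 and 0.06, less than 90.4%, 91.6% and 88.6% of genes. SAPCD2 was lower in the first of these libraries, as were TH, SLC18A2, CHGA, DDC, MAOA, GCH1 and DBH. SLC6A2 (-0.23), SLC18A1 (-0.14) and CHGB were lower in the second, the library with the higher SAPCD2 CPM. These values are not corrected for GC content. With the GC and length correction the SE fell from 0.185 to 0.0624 for TH, from 0.131 to 0.0666 for CHGA and from 0.193 to 0.0706 for SAPCD2. It rose from 0.102 to 0.123 for DBH and from 0.121 to 0.134 for MAOA. Whether the depth of knockdown or the base composition of the transcripts has a part in these differences was not tested.

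Other genes of the pathway, 67 in 7 groups chosen for their roles with earlier results of these data known, were read in the same fit. Of these, 42 had enough counts to be tested, 16 rose and 9 fell, with a median log2 fold change of 0.28, and 11 had no count in any library. Over all tested genes 12.4% rose and 12.5% fell, the shares to set beside this count and those of each group.

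**Figure D4:**
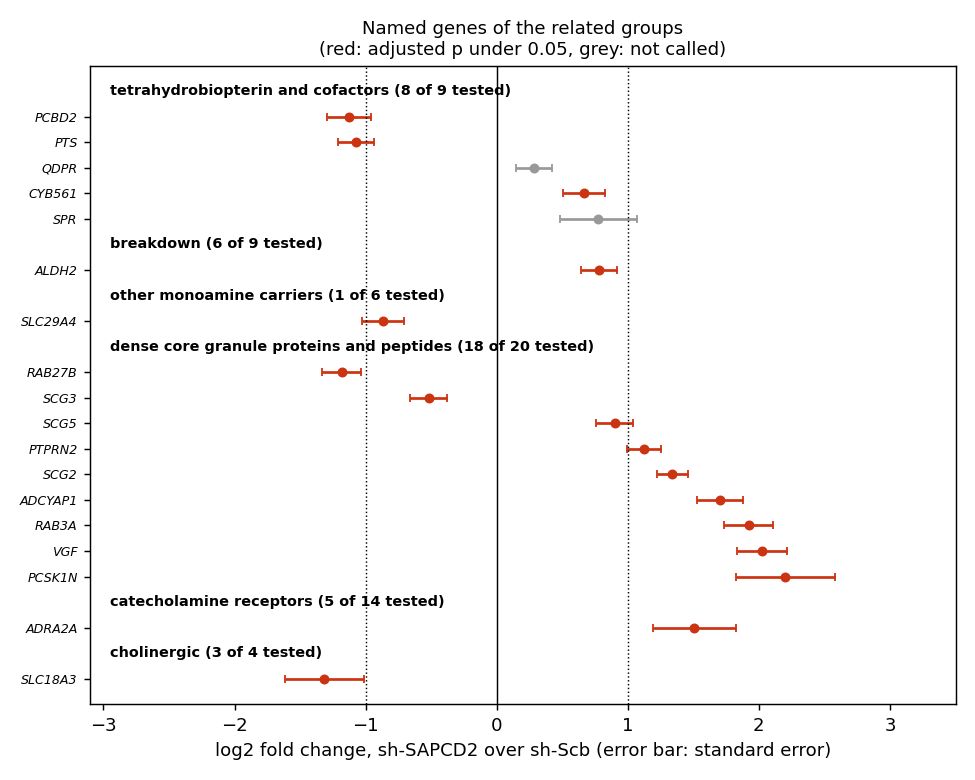
The log2 fold change (sh-SAPCD2 over sh-Scb) with its standard error of the related genes named in the text, 1 row per gene, grouped by role and with called genes in red. Among dense core granule genes VGF lies at 2.02 and RAB27B at -1.18, and among cofactor genes PCBD2 lies at -1.13 and PTS at -1.07.

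Of 8 tested genes for tetrahydrobiopterin and other cofactors, 3 fell and 1 rose. PTS, which acts after GCH1, went from 31.7 ± 1.96 to 15.1 ± 0.419 CPM (SD, n = 2; log2 fold change -1.07, adjusted p = 0.00522). PCBD2, a carbinolamine dehydratase, fell by 1.13 on the log2 scale (adjusted p = 0.00734). GCH1 and PTS, the first and the second step of tetrahydrobiopterin synthesis, thus both fell, while SPR, the last step, was not called at 4.33 and 7.39 CPM (group means, adjusted p = 0.106), nor was the recycling enzyme QDPR at 103 and 126 CPM (adjusted p = 0.174). CYB561, the granule cytochrome that keeps ascorbate reduced for DBH, rose from 50.4 ± 0.270 to 79.9 ± 15.9 CPM (0.67, adjusted p = 0.0287). This call was lost without the first (adjusted p = 0.131) or the second control (0.134) and with no filter (0.0882). PNMT, which makes adrenaline, had 4 to 8 counts in a library and was not tested.

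Of 6 tested breakdown genes, 2 rose and none fell. ALDH2, an aldehyde dehydrogenase, rose from 69.4 ± 0.808 to 119 ± 19.2 CPM (0.78, adjusted p = 0.0123), a call lost without the first (0.0662) or the second control (0.0558). Among carriers of monoamines, SLC29A4, a low-affinity plasma membrane transporter, was the only one tested and fell by 0.87 on the log2 scale (adjusted p = 0.0139), a call lost with no filter on low counts (0.0533). The dopamine transporter SLC6A3 had at most 2 counts in a library, and SLC22A2 and SLC22A3 had none.

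Of 18 tested genes for dense core granule proteins and peptides, 11 rose and 4 fell, with a median of 0.73. Secretogranin II (SCG2) had 407 and 418 CPM with sh-Scb and 1136 and 952 CPM with sh-SAPCD2, a log2 fold change of 1.34 (adjusted p = 0.00263). VGF, a granin-like peptide precursor, had 103 and 95.4 CPM and then 326 and 480 CPM (2.02, adjusted p = 0.00313). Both lay above all controls, where CHGB lay below. RAB3A, a vesicle GTPase, rose by 1.92, the neuropeptide precursor ADCYAP1 by 1.70 and the granule membrane protein PTPRN2 by 1.13 on the log2 scale (adjusted p = 0.00316, 0.00335 and 0.0043). RAB27B, a GTPase of granule docking, fell from 66.3 ± 1.60 to 29.2 ± 4.74 CPM (-1.18, adjusted p = 0.00512). SCG3, SCG5 and PCSK1N, further granin-type proteins, were picked after their values were seen. SCG3 was lower (-0.52, adjusted p = 0.0423) and SCG5 higher (0.90, adjusted p = 0.00875), and PCSK1N rose from 23.3 and 24.5 CPM to 65.9 and 154 CPM (adjusted p = 0.0116). The granin-type genes therefore did not move one way.

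Of 14 catecholamine receptors, 5 were tested, 2 rose and 5 had no count in any library. ADRA2A, an inhibitory adrenergic receptor, went from 1.41 ± 0.355 to 4.04 ± 0.988 CPM (1.51, adjusted p = 0.0208), a call lost with no filter (0.0636). The cholinergic vesicular transporter SLC18A3 fell by 1.32 on the log2 scale (adjusted p = 0.0261), was lost without the second control (0.0701) or with no filter (0.0704), and overlaps CHAT, which had 9, 2, 0 and 0 counts.

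The neuroblastoma label was checked against lists of marker genes. The shares to set beside the calls in each list are again those of all tested genes, of which 12.4% rose and 12.5% fell. All 9 adrenergic neuroblastoma markers were tested, summing to 1870 to 1900 CPM with sh-Scb and to 1505 and 1988 CPM with sh-SAPCD2. Of these, 4 fell, among them TBX2 (-0.56, adjusted p = 0.0234) and ISL1 (-0.52, adjusted p = 0.0185), and none rose. PHOX2A (0.29), HAND2 (-0.12) and GATA3 (0.09) were not called. The sum of 11 mesenchymal neuroblastoma markers went from 1721 and 1733 CPM to 959 and 1041 CPM. Most of that sum was VIM, at a mean of 1188 CPM with sh-Scb and 536 CPM with sh-SAPCD2. Of 10 tested markers on this list, VIM, NOTCH2 and FN1 fell, FOSL1 and FOSL2 rose and 5 were not called, and PRRX1 was at 0 in all libraries. Of the Schwann cell markers SOX10, CDH19 and FOXD3 were at 0, and the whole list of 6 summed to 2.40 to 7.13 CPM, with 1 gene higher. The 6 immune and endothelial markers summed to 9.60 to 14.9 CPM, most of it PTPRC, which was not called, and CD3E was at 0. VWF and CD14 were called higher from few counts. In the 2 sh-Scb and then the 2 sh-SAPCD2 libraries, VWF had 2, 2, 14 and 28, below the floor in the controls. CD14 had 15, 16, 39 and 43. The part of these marker changes in the results for the 10 genes was not tested.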

How the data were processed

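RNA-seq of 4 libraries, 2 of sh-Scb and 2 of sh-SAPCD2 SK-N-BE(2) cells, was used. The authors aligned paired-end reads to hg38 with HISAT2 2.2.0 (version also in the submitters' processing notes), quantified with StringTie and deposited whole-number counts per gene, not scaled for depth. The Ensembl release, strandedness and treatment of multiply matching reads are not given in the sources used here, and each can move reads between overlapping genes.

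Counts were scaled by TMM and fitted with edgeR 4.0.16 in R 4.3.3 (quasi-likelihood test, filterByExpr, minimum count 10, minimum total 15), with Benjamini-Hochberg adjustment over 18779 genes. A call is an adjusted p under 0.05, and the study's limit adds an absolute log2 fold change over 1. Means ± SD are of TMM-scaled CPM. Groups came from the labels. The labels do not say whether a replicate number shared by the groups marks a pair of libraries. The correlation of their deviations was -0.0188, and with 2 libraries a group this single value cannot decide it. Alternatives were DESeq2 1.42.0, other scalings and filters, a replicate block, a GC and length correction and leaving out each library. The fitting script was tested on simulated data. It called 63 of 100 genes changed by an absolute log2 fold of 1 and 95 of 100 changed by 2, with 5 unchanged genes called. A gene that was not called can thus still have changed. GENCODE 44 gave symbols, positions and lengths, matching 17467 tested genes, and RefSeq (GRCh38.p14) gave promoters. TH, GCH1, SLC18A1, SLC6A2 and CHGB had no promoter entry.

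Named genes were all 10 members, SAPCD2, up to 6 called genes per related group with the smallest p, and markers at 0 or called. Others were named outside that rule: SCG3, SCG5 and PCSK1N, the uncalled SPR, QDPR, PHOX2A, HAND2 and GATA3, and some genes with too few counts to test. The members, gene lists and tests were chosen with earlier results of these data known. Some genes of these lists are counted in the totals and not reported here by name.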

Additional observations from a re-analysis of the deposited data

How the results depend on the processing

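With 2 libraries a group, precision is set by the spread between libraries: DBH, SLC6A2 and CHGB stayed called lower in every alternative, and 2 members passed the study's limit downward in each. Leaving out single libraries gave 0 to 2 members higher, 3 to 6 lower (3 without the first sh-Scb library), and 10 to 20 related genes higher and 5 to 10 lower. It also gave TH -0.0899 to 0.47 and SLC18A2 -0.19 to 0.26 on the log2 scale. The GC and length correction gave 1 member higher (DDC) and 6 lower, both alone and with the replicate block, with TH at -0.12 in both; the cause was not tested. With no filter on low counts, which tests more genes, 9 related genes rose and 4 fell. With the replicate block 4 members fell, GCH1 being lost (-0.39, adjusted p = 0.0712). No other member's call changed, and the labels do not say whether a shared number stands for a shared batch.

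Over all tested genes, 2326 rose and 2339 fell. The replicate block gave 2860 and 2701, no filter 1081 and 1180, and the GC and length correction 3743 and 3450 (3706 and 3375 with the block). Without the first sh-Scb library 1201 rose and 1146 fell, without the second 1176 and 1152, without the first sh-SAPCD2 library 4396 and 4014, and without the second 3532 and 3496. In these last fits a lone library is assumed to vary like the other group.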
